A study of Rattus norvegicus with 6 samples.

Results

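The miR-125 family of the rat was measured as 5 mature arms, miR-125a-5p, miR-125a-3p, miR-125b-5p, miR-125b-1-3p and miR-125b-2-3p. They are all the rows of the deposited table, 5 of 764, whose name begins with miR-125a or miR-125b, so the rule for choosing them uses names alone, although the family was picked for study with earlier results of these data known. All 5 had a value above 0 in every library and were tested together with the other rows above 0, 570 in all. The small RNA libraries came from tissue labelled testicle of male Sprague Dawley rats, 3 labelled HO-1 knockout and 3 labelled wild type (WT). HO-1, or heme oxygenase 1, degrades heme and is induced by stress. In both genotypes the left testicle had been turned by 720° for 2 h and returned to its position for 3 days, so injury was shared by all 6 libraries, and genotype was the only contrast. The sources used here do not give ages, the construction of the knockout or whether each library came from its own animal, so p-values measure the spread between these libraries.

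miR-125 is the vertebrate relative of lin-4, the first miRNA described in the worm Caenorhabditis elegans. A miRNA hairpin is cut into a 5p and a 3p arm, of which usually a single one is kept as the guide strand. The guide pairs with messenger RNAs mainly through its seed, bases 2 to 8. In mammals miR-125 genes lie in clusters with a gene of the miR-99/100 family and a let-7 gene. miR-125b is known from blood cell development and for repressing genes that promote apoptosis, and it is abundant in mesenchymal cells such as fibroblasts and smooth muscle.

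The mature sequences decide which locus each arm can report on. They are shown 5′ to 3′ with the seed in capitals, from RefSeq on the rat assembly GRCr8, where all 5 members were found. The first 3 share the seed CCCUGAG, and no other mature rat miRNA of that table has it. miR-351-5p is a rodent miRNA from an unrelated cluster on chromosome X.
miR-125a-5p: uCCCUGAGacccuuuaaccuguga
miR-125b-5p: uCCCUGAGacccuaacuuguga
miR-351-5p: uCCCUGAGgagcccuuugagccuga
miR-125a-3p: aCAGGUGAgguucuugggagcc
miR-125b-1-3p: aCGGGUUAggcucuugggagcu
miR-125b-2-3p: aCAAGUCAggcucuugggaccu
miR-125a-5p and miR-125b-5p are identical over their first 13 bases and differ by an edit distance of 3. miR-351-5p is identical to either over the first 8 bases, with an edit distance of 6 from miR-125a-5p and 9 from miR-125b-5p. Each of the 3p arms has a seed of its own.

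miR-125b-5p is made by a pair of genes. On GRCr8 it lies at chr11:29732588-29732609 (+) in Mir125b2, and the same letters occur in the hairpin of Mir125b1 at chr8:50850050-50850071 (+). A read of miR-125b-5p therefore does not tell which gene it came from. The 3p arms do tell, since they differ at 4 of 22 positions, counted from the 5′ end: G3A, G4A, U7C and G20C from miR-125b-1-3p to miR-125b-2-3p. Those positions are in capitals here.
miR-125b-1-3p: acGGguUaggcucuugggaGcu
miR-125b-2-3p: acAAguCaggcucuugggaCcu
The RefSeq hairpins of Mir125a, at chr1:67350675-67350759 (+), and Mir125b1, at chr8:50850036-50850122 (+), show both arms in capitals on either side of the loop.
Mir125a: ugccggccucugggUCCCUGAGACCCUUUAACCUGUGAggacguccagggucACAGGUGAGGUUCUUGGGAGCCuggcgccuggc
Mir125b1: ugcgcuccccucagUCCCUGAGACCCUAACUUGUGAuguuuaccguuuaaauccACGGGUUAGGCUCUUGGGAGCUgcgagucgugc
In the RefSeq gene table Mir125a lies within the span of Spaca6, a gene for a sperm acrosome protein needed for fertilization. Mir125b1 lies within that of Mir100hgl and Mir125b2 within that of the long noncoding RNA LOC103693508. The strand and exons of these genes were not used here.

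Values were reads per 1000000 assigned miRNA reads (RPM), and the library totals, recovered from the size of 1 read, were 8300536 to 10042673 reads. Tissue markers touch every result below. Germ and Sertoli cell miRNAs were scarce: 11 of 13 list members were above 0 in some library, and the list summed to 28.9 to 33.5 RPM in knockout libraries and 39.2 to 55.6 RPM in WT libraries, with miR-202-3p and miR-880-3p at 0 in all 6. Most of that sum was miR-34c-5p, of meiotic and later germ cells, at 18.4 to 22.0 RPM in knockout libraries and 24.9 to 38.0 RPM in WT libraries. miR-122-5p, the hepatocyte miRNA, held 40.2% to 46.4% of the reads in knockout libraries and 32.7% to 36.6% in WT libraries, a log2 change of 0.30 that did not pass (limma adjusted p = 0.095). Its other arm, miR-122-3p, averaged 1326 ± 142 RPM in the knockout and 1420 ± 47 RPM in WT (SD, n = 3 each), with overlapping groups (log2 change -0.10, limma adjusted p = 0.61). Which tissue the values describe is therefore not settled by these markers, and fewer cells of a type and less RNA per cell cannot be told apart.

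rno-miR-125b-5p was the most abundant arm of the family, and it fell in the knockout. rno-miR-125b-5p had 2247, 2838 and 2552 RPM in knockout libraries 1 to 3, against 5060, 4054 and 5458 RPM in WT libraries 1 to 3. Every knockout library lay below every WT library. The means were 2545 ± 296 RPM in the knockout and 4857 ± 723 RPM in WT (SD, n = 3 each), 1.91-fold lower. The log2 change of RPM + 1, knockout minus WT, was -0.93 (SE 0.14, 95% interval -1.25 to -0.61, limma adjusted p = 0.015). It ranked 26th of the 570 tested miRNAs by mean RPM. The call was lost without knockout library 3, with a log2 change of -0.93 and a limma adjusted p of 0.071.

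rno-miR-125b-2-3p, the passenger strand of the gene on chromosome 11, also fell. It stood at 15.9, 23.6 and 21.8 RPM in knockout libraries 1 to 3, from 132, 231 and 196 reads. In WT libraries 1 to 3 it stood at 58.7, 39.98 and 41.9 RPM, from 589, 365 and 397 reads. The groups did not overlap, and WT library 1 was the highest of the 6. The means were 20.4 ± 4.0 RPM in the knockout and 46.8 ± 10.3 RPM in WT (SD, n = 3 each), 2.29-fold lower. The log2 change was -1.16 (SE 0.23, 95% interval -1.68 to -0.63, limma adjusted p = 0.025). This call was lost without any single library, with log2 changes from -1.26 to -0.99 and limma adjusted p between 0.053 and 0.094.

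rno-miR-125b-1-3p, the passenger strand of the gene on chromosome 8, was rare and did not pass the test. Its values were 1.2, 1.43 and 1.33 RPM in knockout libraries 1 to 3, from 10, 14 and 12 reads. In WT libraries 1 to 3 they were 6.47, 1.86 and 2.64 RPM, from 65, 17 and 25 reads. The groups did not overlap, but the lowest WT library was close to the highest knockout library and WT library 1 stood far above the other two. The log2 change was -0.88 (SE 0.36, 95% interval -1.71 to -0.05, limma adjusted p = 0.22). Without WT library 1 it was -0.48 (limma adjusted p = 0.23). In the authors' deposited table its log2 fold change is -1.47 with a p of 0.022, on a scale without pseudocount and by a test that the file does not name.

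rno-miR-125a-5p, the guide strand of the gene on chromosome 1, stood at nearly the same level in both genotypes. It had 1006, 1016 and 1137 RPM in knockout libraries 1 to 3 and 1181, 1079 and 1090 RPM in WT libraries 1 to 3. Knockout library 3 lay above WT libraries 2 and 3, so the groups overlapped. The means were 1053 ± 73 RPM in the knockout and 1117 ± 56 RPM in WT (SD, n = 3 each). The log2 change was -0.09 (SE 0.10, 95% interval -0.31 to 0.14, limma adjusted p = 0.64), and its sign turned with the scaling, to 0.14 with TMM. It was -0.14 without knockout library 3, -0.054 without knockout library 1 and -0.045 without WT library 1. Its passenger strand, rno-miR-125a-3p, had 3.01, 4.08 and 3.34 RPM in knockout libraries 1 to 3 and 3.49, 3.18 and 2.00 RPM in WT libraries 1 to 3, which overlap. Its log2 change was 0.22 (SE 0.26, 95% interval -0.38 to 0.82, limma adjusted p = 0.66), from 95 reads in the knockout and 83 in WT. It was 0.040 without WT library 3, 0.12 without knockout library 2 and 0.33 without WT library 1.

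**Figure D1:**
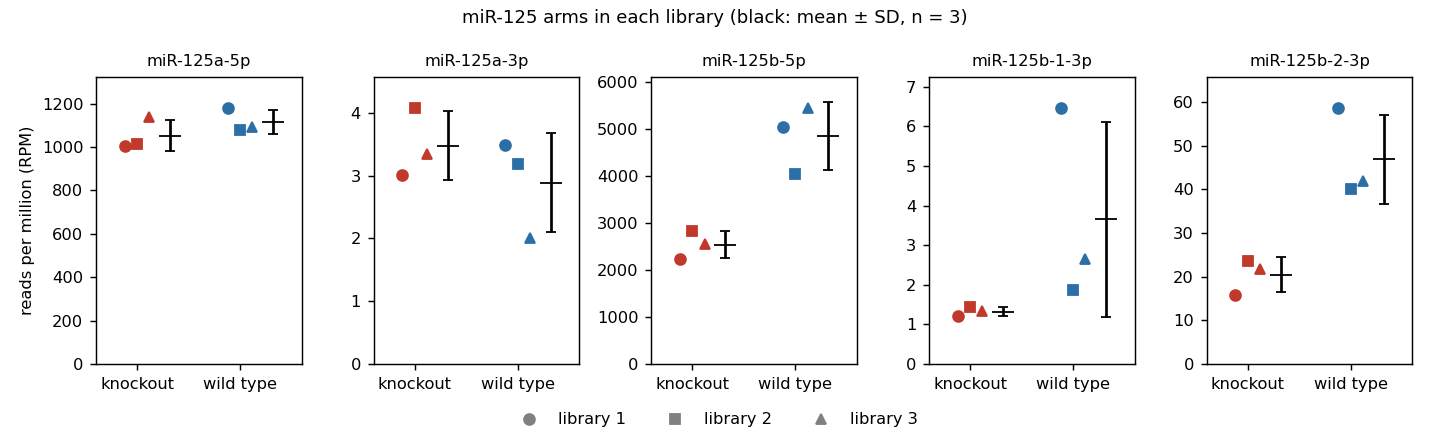
RPM of each miR-125 arm (vertical axis, from 0) in the 3 HO-1 knockout libraries (red) and the 3 wild type libraries (blue), with the mean ± SD in black. The knockout libraries lie below all wild type libraries for the 3 arms of miR-125b, with WT library 1 far above the others for miR-125b-1-3p, and overlap with them for both arms of miR-125a.

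Of the 5 arms, 2 fell, 0 rose and 3 did not pass, beside 32 falling miRNAs among the 570 tested (5.61%) and 4 rising ones (0.702%). The knockout libraries were all below the WT libraries for 3 of the 5 arms. The same held for 21.6% of all tested miRNAs and for 41.7% of the 218 miRNAs of at least 10 RPM. The arms had a median log2 change of -0.88, beside -0.12 for all tested miRNAs and -0.29 for those of at least 10 RPM. TMM scaling shifted the median of the miRNAs of at least 10 RPM by 0.21. Relative to the median of -0.29, the log2 change was -0.64 for miR-125b-5p, -0.87 for miR-125b-2-3p and 0.20 for miR-125a-5p. With TMM scaling, under which 5.09% of miRNAs fell, the changes were -0.70 for miR-125b-5p (limma adjusted p = 0.025) and -0.94 for miR-125b-2-3p (limma adjusted p = 0.015). On whole reads recovered from the RPM, edgeR's quasi-likelihood test, by which 6.14% of miRNAs fell, gave -0.73 for miR-125b-5p (adjusted p = 0.0055) and -0.98 for miR-125b-2-3p (adjusted p = 0.0029).

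**Figure D2:**
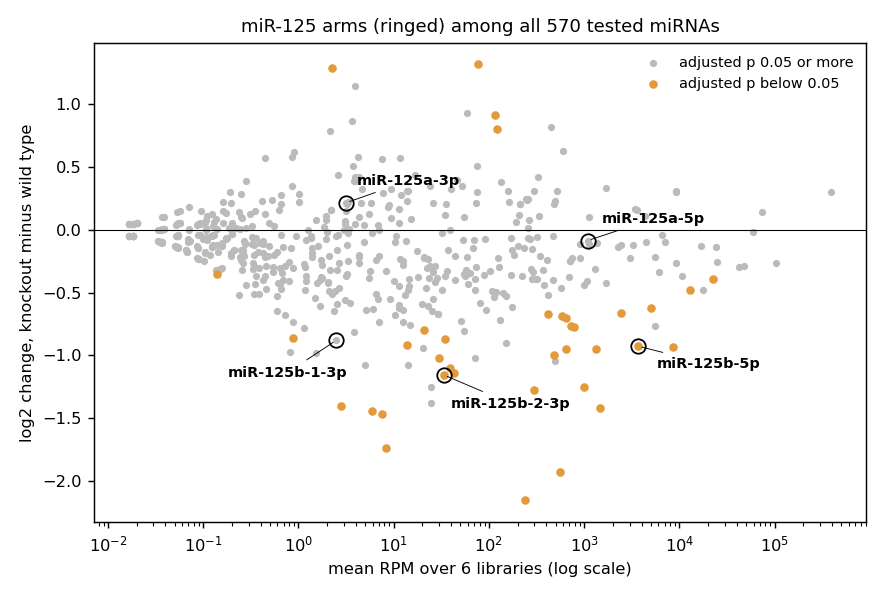
Log2 change of RPM + 1, knockout minus wild type (vertical axis), against mean RPM over the 6 libraries (horizontal axis, log scale) for the 570 tested miRNAs, with the miR-125 arms ringed and calls in orange. The miR-125b arms lie at log2 changes of -0.93, -0.88 and -1.16, and the miR-125a arms at -0.09 and 0.22.

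The balance between the paralogs differed by genotype. The RPM of miR-125b-5p was 2.23, 2.79 and 2.24 times that of miR-125a-5p in knockout libraries 1 to 3, against 4.29, 3.76 and 5.01 times in WT libraries 1 to 3. Every knockout ratio was below every WT ratio. On the log2 scale the ratio averaged 1.27 ± 0.18 in the knockout and 2.11 ± 0.21 in WT (SD, n = 3 each), a difference of -0.84. Such a ratio within a library does not depend on how libraries are scaled, so it compares the changes of the paralogs directly. The exact two-sided permutation p was 0.1, the smallest that 3 against 3 libraries allow. Adjusted by Benjamini-Hochberg over the 8 ratios and shares compared in this way, that exact p became 0.27.

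Among the reads with the shared seed, miR-125b-5p held 69.4% ± 2.6 in the knockout and 79.8% ± 2.3 in WT (SD, n = 3 each). The share of miR-125a-5p was 28.9% ± 2.5 in the knockout and 18.6% ± 2.1 in WT. miR-351-5p held 1.75% ± 0.10 in the knockout and 1.601% ± 0.237 in WT. The reads with this seed summed to 3662 ± 315 RPM in the knockout and 6070 ± 744 RPM in WT, so most of the seed was carried by miR-125b-5p in both genotypes. Ligation captures different miRNA sequences with different efficiency, so levels set beside each other across arms are levels of reads.

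The locus readout of miR-125b did not separate the genotypes. miR-125b-2-3p held 93.0%, 94.3% and 94.2% of the 3p reads of both miR-125b genes in knockout libraries 1 to 3, with the lowest interval starting at 87.4% and the highest ending at 97.0% (95% exact Clopper-Pearson, 142 to 245 reads). In WT library 1 the share was 90.1% (87.5% to 92.2%, 654 reads), in WT library 2 95.5% (93.0% to 97.4%, 382 reads) and in WT library 3 94.1% (91.4% to 96.1%, 422 reads). WT library 1 was thus the lowest and WT library 2 the highest, and their intervals do not overlap although both are WT. The mean share was 93.8% ± 0.7 in the knockout and 93.2% ± 2.8 in WT (SD, n = 3 each), a difference of 0.61 percentage points (exact two-sided permutation p = 0.8). Without WT library 1 the difference was -0.98 percentage points. At 10 to 65 reads of miR-125b-1-3p per library, a shift of the balance smaller than the spread of the WT libraries was not detectable.

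The arm ratios overlapped between genotypes. The 5p arm of miR-125b exceeded its 3p arms 110 to 131 times in knockout libraries and 77.7 to 123 times in WT libraries, with a log2 difference of 0.28 (exact two-sided permutation p = 0.3), which was 0.12 without WT library 1 and 0.44 without WT library 3. miR-125a-5p exceeded miR-125a-3p 249 to 340 times in knockout libraries and 338 to 545 times in WT libraries, with a log2 difference of -0.38 (exact two-sided permutation p = 0.3), which was -0.15 without WT library 3 and -0.24 without knockout library 2. In every library the 5p arm was the dominant strand of both miR-125a and miR-125b. WT library 1, where both miR-125b passenger strands were highest, had the lowest arm ratio of miR-125b, 77.7.

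**Figure D3:**
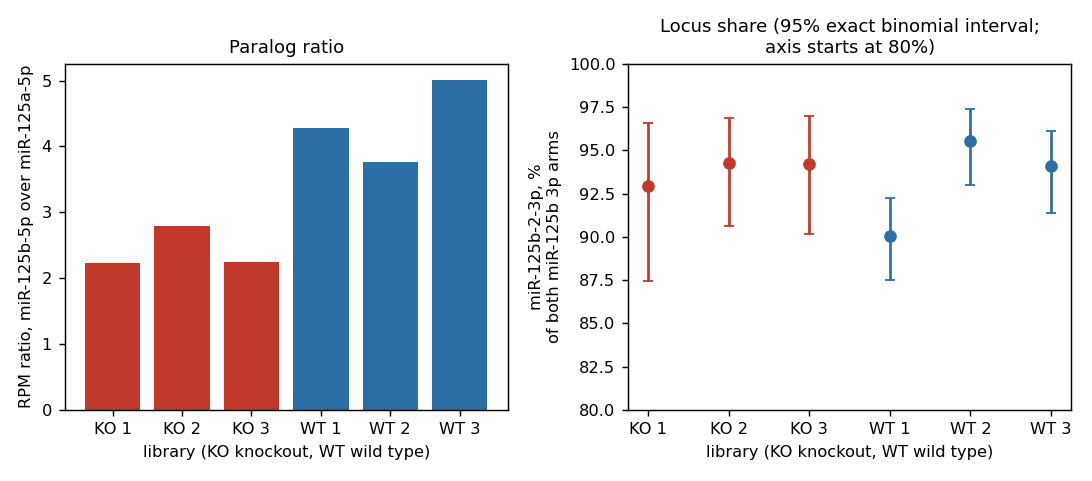
Left, RPM ratio of miR-125b-5p to miR-125a-5p in each library, between 2.23 and 2.79 in the knockout (red) and between 3.76 and 5.01 in wild type (blue). Right, percent of miR-125b-2-3p among the 3p reads of both miR-125b genes with its 95% exact binomial interval (vertical axis from 80%), between 93.0% and 94.3% in the knockout and between 90.1% and 95.5% in wild type.

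Each miR-125 gene has neighbours with which it may share a transcript. On GRCr8 miR-99b-5p ends 597 bases before miR-125a-5p on chromosome 1, while miR-100-3p lies 51.7 kb before miR-125b-1-3p on chromosome 8 and miR-99a-3p lies 45.2 kb before miR-125b-2-3p on chromosome 11. The list of mates left out let-7a-5p of the Mir125b1 cluster, since several loci make it. Of the 11 cluster mates listed and tested, 2 fell, 0 rose and 9 did not pass, with a median log2 change of -0.44, and 6 had all knockout libraries below all WT libraries. Over all tested miRNAs 5.61% fell and 21.6% had all knockout libraries below, or 41.7% of those of at least 10 RPM. The mates that fell were a mate of each miR-125b gene, miR-100-5p and miR-99a-3p.

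miR-100-5p, the guide strand in the cluster of Mir125b1, had 462, 517 and 488 RPM in knockout libraries 1 to 3 and 857, 760 and 777 RPM in WT libraries 1 to 3. The groups did not overlap, and the log2 change was -0.70 (SE 0.10, limma adjusted p = 0.015), lost without knockout library 3 (limma adjusted p = 0.071). miR-99a-3p, the passenger strand in the cluster of Mir125b2, had 2.05, 3.47 and 2.67 RPM in knockout libraries 1 to 3 and 8.86, 7.89 and 10.6 RPM in WT libraries 1 to 3. Its log2 change was -1.45 (SE 0.26, limma adjusted p = 0.019), lost without knockout library 1 (limma adjusted p = 0.081) or 3 (0.090). The guide strand of that hairpin, miR-99a-5p, averaged 14826 ± 1124 RPM in the knockout and 20725.5 ± 3058 RPM in WT (SD, n = 3 each) and did not pass (log2 change -0.48, limma adjusted p = 0.062). It passed without WT library 2 (limma adjusted p = 0.049). let-7c-5p, which a second gene on chromosome 7 also makes, averaged 16115 ± 489 RPM in the knockout and 17602 ± 1392 RPM in WT and did not pass (log2 change -0.12, limma adjusted p = 0.47). The log2 change of let-7c-1-3p, made only at the Mir125b2 cluster, was -0.63 (limma adjusted p = 0.21).

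In the cluster of Mir125a none of 4 mates passed. miR-99b-5p averaged 457 ± 36 RPM in the knockout and 476 ± 75 RPM in WT (SD, n = 3 each), with a log2 change of -0.05 (95% interval -0.38 to 0.28, limma adjusted p = 0.84). let-7e-5p averaged 324 ± 27 RPM in the knockout and 439 ± 48 RPM in WT, and its groups did not overlap. The difference, -0.44 on the log2 scale, did not pass (limma adjusted p = 0.091). The log2 change of the passenger strand miR-99b-3p was -0.64 (95% interval -1.20 to -0.07, limma adjusted p = 0.19), and its groups did not overlap either. For the passenger strand let-7e-3p it was -0.27 (limma adjusted p = 0.59), with overlapping groups. The rare mates of Mir125b1 had 1 to 4 reads per genotype: miR-100-3p had 3 reads in the knockout and 2 in WT, and let-7a-2-3p had 1 in the knockout and 4 in WT. The seed relative miR-351-5p averaged 63.9 ± 5.8 RPM in the knockout and 96.2 ± 7.7 RPM in WT, a difference of -0.58 on the log2 scale. Tested with all miRNAs it did not pass (limma adjusted p = 0.051), and it passed among those of at least 10 RPM (limma adjusted p = 0.020).

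Ratios to the mates compared the members' changes with theirs. Relative to miR-99a-5p, miR-125b-5p was lower by 0.45 on the log2 scale in the knockout, with a mean log2 ratio of -2.55 ± 0.09 in the knockout and -2.09 ± 0.15 in WT (SD, n = 3 each), and the groups did not overlap (exact two-sided permutation p = 0.1, adjusted 0.27). Relative to miR-100-5p the difference was -0.22, with overlapping groups (exact p = 0.2, adjusted 0.4), and it was -0.11 without WT library 3. miR-125a-5p and miR-99b-5p kept a log2 ratio of 1.20 ± 0.15 in the knockout and 1.24 ± 0.22 in WT, a difference of -0.038 (exact p = 0.9), whose sign turned without knockout library 2 (0.047) or WT library 3 (0.084). Relative to let-7e-5p, miR-125a-5p was higher in the knockout by 0.35, with a mean log2 ratio of 1.70 ± 0.18 in the knockout and 1.35 ± 0.11 in WT, and the groups did not overlap (exact p = 0.1, adjusted 0.27).

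**Figure D4:**
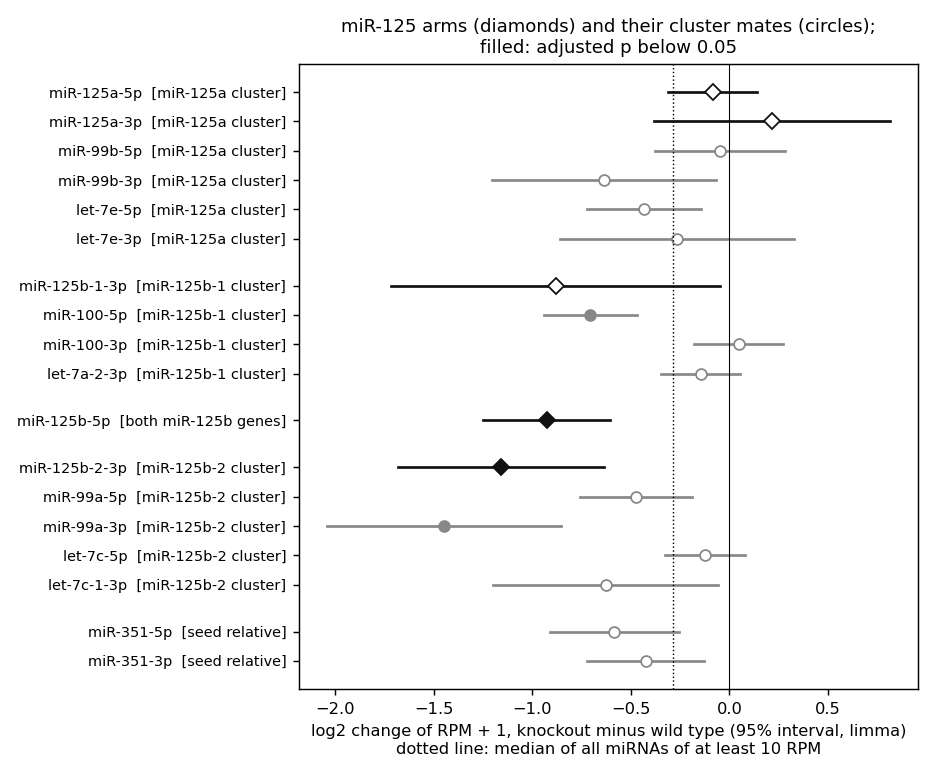
Log2 change of RPM + 1, knockout minus wild type, with its 95% interval from limma, for the miR-125 arms (diamonds), their cluster mates and miR-351 (circles), ordered by cluster, filled where the adjusted p was below 0.05. miR-125b-5p, miR-125b-2-3p, miR-100-5p and miR-99a-3p are filled, and all symbols of the miR-125a cluster are open.

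The miRNAs closest to miR-125a-5p over the 6 libraries were let-7b-5p, miR-30e-5p and miR-185-5p, with root mean square differences of 0.053, 0.065 and 0.066 between their centred log2 levels, beside a median of 0.24 over 215 miRNAs. Those closest to miR-125b-5p were miR-20a-5p, miR-455-5p and miR-100-5p, at 0.15, 0.16 and 0.17, beside a median of 0.41. The 3 close to miR-125a-5p had log2 changes of -0.12 to -0.14. Those close to miR-125b-5p had log2 changes of -0.997, -0.91 and -0.70, and miR-455-5p did not pass (limma adjusted p = 0.061). These miRNAs were picked for closeness over the same 6 libraries, genotype difference included. Log2 changes near those of the members therefore follow from the choice and are no separate result.

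Of 8 markers of smooth muscle and fibroblasts, 4 fell, 0 rose and 4 did not pass, 7 had a negative log2 change, the median log2 change was -0.998, and the list summed to 6895 to 9094 RPM in knockout libraries and 12086 to 19225 RPM in WT libraries. Of all 570 tested miRNAs, 32 fell and 396 had a negative log2 change. Of the 218 miRNAs of at least 10 RPM, 26 fell and 164 had a negative log2 change, so a negative sign was common. None of the 8 was at 0 in every library, though miR-214-5p was at 0 in the knockout and had 4 reads in WT. The one with a positive log2 change was miR-145-3p, at 267.9 ± 8.4 RPM in the knockout and 253.7 ± 18.8 RPM in WT (SD, n = 3 each), with overlapping groups (log2 change 0.08, limma adjusted p = 0.71). miR-143-3p, the main smooth muscle miRNA, averaged 5914 ± 1034 RPM in the knockout and 11348 ± 2414 RPM in WT (SD, n = 3 each), with a log2 change of -0.93 (limma adjusted p = 0.025). The fibroblast miRNA miR-199a-3p had 655, 946 and 682 RPM in knockout libraries 1 to 3 and 3513, 1398 and 1648 RPM in WT libraries 1 to 3. WT library 1, the highest for both miR-125b passenger strands, was also the highest here. It was the highest for miR-143-3p, miR-199a-5p, miR-214-3p and miR-214-5p too. miR-143-5p was highest in WT library 2, miR-145-5p in WT library 3 and miR-145-3p in knockout library 1. miR-125b-5p itself was highest in WT library 3, at 5458 RPM, against 5060 RPM in WT library 1.

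The endothelial markers, miR-126a-3p and miR-126a-5p, are arms of the same hairpin and so are not separate genes. Both fell as well, beside 5.61% of all tested miRNAs. Their sum was 19147 to 21287 RPM in knockout libraries and 25222 to 26982 RPM in WT libraries. None of 5 leukocyte markers passed, and they summed to 819 to 932 RPM in knockout libraries and 762 to 880 RPM in WT libraries, which overlap. miR-142-3p was higher in all knockout libraries, at 378 ± 11 RPM against 282 ± 23 RPM in WT (log2 change 0.42, limma adjusted p = 0.062). The groups overlapped for miR-142-5p (log2 change -0.06), miR-223-3p (-0.43), miR-223-5p (0.29) and miR-150-5p (-0.30). The part of any of these cell types, or of miR-122-5p, in the change of miR-125b was not tested. With miR-122-5p left out of the library totals, the log2 change was -0.73 for miR-125b-5p (limma adjusted p = 0.017), -0.98 for miR-125b-2-3p (limma adjusted p = 0.022) and 0.11 for miR-125a-5p (limma adjusted p = 0.57).

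**Figure D5:**
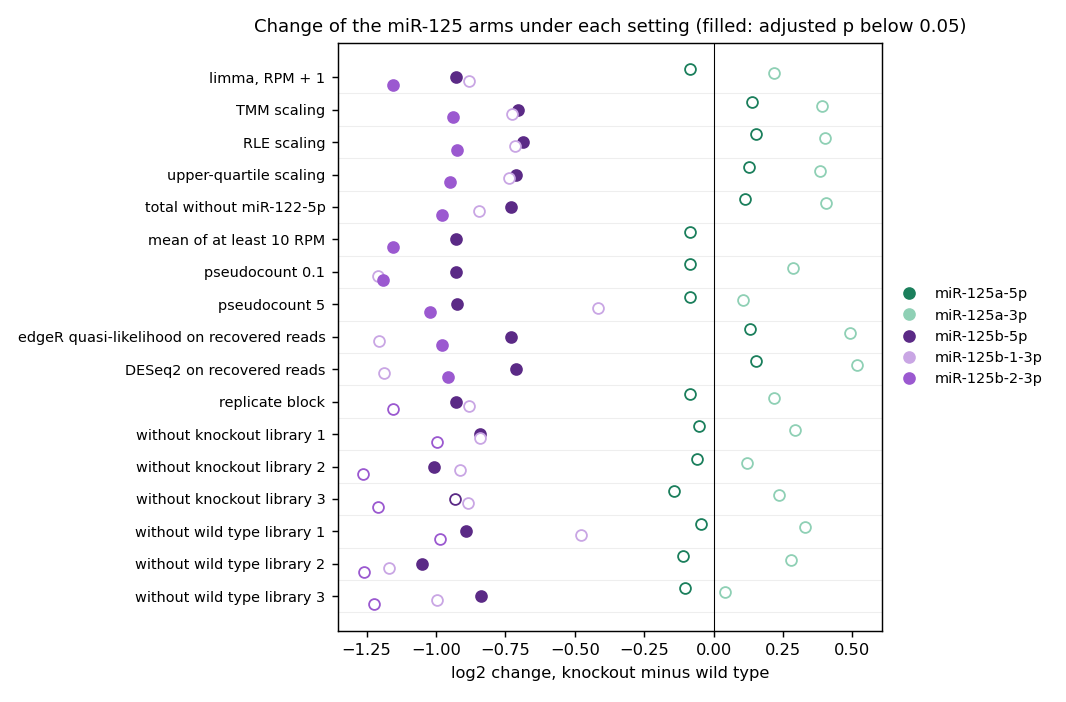
Log2 change, knockout minus wild type, of each miR-125 arm (colours) under each setting (rows), filled where the adjusted p was below 0.05. miR-125b-5p lies between -1.05 and -0.69 and miR-125b-2-3p between -1.26 and -0.93, while miR-125a-5p crosses 0, between -0.14 and 0.15.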

How the data were processed

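Total RNA, 1 μg per library, was made into small RNA libraries with a ligation kit and read as single ends of 50 bp, per the labels' protocols. The submitters' processing notes name FastQC, BWA, edgeR and rn6 without their roles. The sources used here do not give the trimming, the mismatch rules or how reads matching several miRNAs were treated.

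The authors deposited RPM values of 764 miRNAs, rounded to 2 decimals, with the mean RPM per genotype, a log2 fold change and a p-value, per the file headers. All 6 value columns were matched to samples by name.

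The 570 rows above 0 in some library were tested with limma 3.58.1 (intensity trend) on log2(RPM + 1), with genotype as the only factor and Benjamini-Hochberg adjustment at 0.05. Such changes understate those of rare miRNAs. Whole reads were recovered from the RPM steps: 97.8% to 98.9% of values above 0 came out whole with a tolerance of 0.0051 RPM. In WT library 1 the step of 0.0996 RPM is close to 0.1, so its total rests on the higher values. On these reads edgeR 4.0.16 called 61 miRNAs and DESeq2 1.42.0 called 72, as alternatives. Reads were not deduplicated here. The exact binomial intervals of the locus share cover counting error only, while the limma intervals rest on the spread between libraries. Ratios and shares were compared by exact two-sided permutation. Fits were also run on simulated data. The outcome is not given here, so it does not show how any of these tests handle a shift in library composition, and no call above rests on it.

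The members, the list of mates, the markers and the rule for similar miRNAs (smallest root mean square difference, mean of at least 10 RPM) were chosen with earlier results of these data known. The markers of the hepatocyte, germ and Sertoli, smooth muscle and fibroblast, endothelial and leukocyte lists are background knowledge. RefSeq sequences are on GRCr8, not rn6. Alternatives were other scalings, pseudocounts of 0.1 and 5, a mean of at least 10 RPM, the replicate number as a block and leaving out each library.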

Additional observations from a re-analysis of the deposited data

How the results depend on the processing

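The direction of miR-125b-5p, miR-125b-1-3p, miR-125b-2-3p and miR-125a-3p was kept under all alternatives in which they were tested. miR-125a-5p (-0.09) turned positive with TMM (0.14), RLE (0.15) and upper-quartile scaling (0.13), with totals without miR-122-5p (0.11), in edgeR (0.13) and in DESeq2 (0.15), never passing. The same 6 settings turned miR-99b-5p, to 0.18, 0.19, 0.17, 0.15, 0.16 and 0.19, and let-7c-5p, to 0.099, 0.12, 0.090, 0.073, 0.089 and 0.11. All 6 change how libraries are scaled. With 1 library left out, log2 changes ranged from -1.05 to -0.84 for miR-125b-5p, from -1.26 to -0.99 for miR-125b-2-3p, from -0.19 to 0.030 for miR-99b-5p and from -0.014 to 0.12 for miR-100-3p. Differences ranged from -0.98 to 1.77 percentage points for the locus share and from -0.12 to 0.084 for the log2 ratio of miR-125a-5p to miR-99b-5p. With 1 RPM added to each arm the locus share differed by -1.44 percentage points.

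The number of called members was 0 to 1 with 1 library left out, 0 without knockout library 3, and that of mates and miR-351 arms was 0 to 3, beside 4 with a pseudocount of 0.1. Calls over all miRNAs were 36, 5 to 26 with 1 library left out, 61 in edgeR and 72 in DESeq2. Of the calls, 11.1% were higher in the knockout, 40.8% with TMM and 48.6% in DESeq2. Whether equal replicate numbers pair a knockout with a WT library was not settled. The correlation r was 0.033, 0.18 and 0.20 for equal numbers 1 to 3, and -0.29 to 0.060 for unequal numbers. Libraries 2 and 3 of both genotypes correlated best with their own number, and libraries 1 did not. With the replicate block, calls over all miRNAs were 22, of members 1 and of mates 1, and neither miR-125b-2-3p (-1.16, limma adjusted p = 0.066) nor miR-99a-3p (-1.45, 0.054) passed. Among miRNAs of at least 10 RPM, and with a pseudocount of 0.1, miR-99a-5p (limma adjusted p = 0.016 and 0.045) and miR-351-5p (0.020 and 0.045) passed. With the block the ratio of miR-125b-5p to miR-125a-5p had an exact p of 0.25, the smallest that 3 pairs allow. miR-125b-1-3p and miR-125a-3p rest on 10 to 65 and 19 to 40 reads per library, which limits them. The causes of these differences were not tested.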

Other observations

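The strand opposite Mir125b2 carries another annotated rat miRNA, miR-3588. In the RefSeq table its mature sequence lies at chr11:29732588-29732609 (-), the coordinates of miR-125b-5p, and it is the reverse complement of miR-125b-5p.
miR-3588: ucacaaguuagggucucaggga
It was listed at 0 in all 6 libraries, where 3 reads would have stood at 0.299 to 0.361 RPM. miR-125b-5p stood at 2247 to 2838 RPM in knockout libraries and 4054 to 5458 RPM in WT libraries.

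These strand values were chosen after they had been seen. In the Mir125b2 cluster the log2 change was -1.16 for miR-125b-2-3p and -0.93 for miR-125b-5p, while it was -1.45 for miR-99a-3p and -0.48 for miR-99a-5p. miR-125b-5p also comes from Mir125b1, and the difference between the strands of miR-99a was not tested. In the miR-125a cluster it was 0.22 for miR-125a-3p and -0.64 for miR-99b-3p, and neither passed (limma adjusted p = 0.66 and 0.19).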
